A study of Canis lupus familiaris with 23 samples.

Results

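Gene expression of 2 canine osteosarcoma cell lines was compared with that of normal dog organs. The members of the comparison were the 8 arrays, of 23 in the series, that the labels gave as osteosarcoma cell line (2 arrays, 1 for each line) or as normal tissue (2 arrays each of kidney, liver and lymph node). The other 15 arrays held primary osteosarcomas of pet dogs, taken before chemotherapy, and are given beside the members where a line gene is set against tumor tissue. The study's methods name the canine lines as MC-KOSA and BW-KOSA, but the labels do not say which array held which, so they are called line 1 and line 2. The lines were plated overnight in culture dishes before RNA was taken, and no treatment is named for them. The normal organs came from research colony dogs and held every cell type of the tissue, blood and vessel cells included. No normal bone and no cultured normal cell was among the arrays, so culture, cancer and tissue of origin cannot be told apart in any difference given here. The labels give Trizol extraction for all arrays and the methods a column kit for the RNA of the lines, so a difference in extraction between lines and organs cannot be told apart from the groups either. Ages, sexes and breeds of the organ donors were not given in the labels, and the authors describe the organ samples as biological replicates. Each line was measured once, so the p-values rest on the spread between these 2 lines and within 3 pairs of organ samples.

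Osteosarcoma is a malignancy of bone-forming mesenchymal cells that occurs spontaneously in large dogs. Its cells are related to osteoblasts, which secrete a collagen-rich matrix (osteoid) and then mineralize it. A cell line keeps only the cancer cells that divide in a dish, without the macrophages, vessels, lymphocytes and other stroma of a tumor. Kidney and liver are built mainly of epithelial cells with few divisions and a large metabolic output, whereas a lymph node holds densely packed immune cells, some of them dividing.

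Values are log2 expression values from robust multi-array averaging (RMA), where a step of 1 is a factor of 2, and every difference is the mean of the lines minus that of the organs, each organ weighted equally (± SE, n = 2 lines and 6 organ samples), unless another comparison is named. A gene or probe set is called when limma's adjusted p is below 0.01. All p-values below are limma's, adjusted by Benjamini-Hochberg over 23836 probe sets. Levels of different genes were not compared, because probe sets bind with different strength. The 2 lines resembled each other (Pearson's r = 0.961 over these probe sets), and the SD of their difference was 0.583, against 0.657 to 0.792 for the 2 arrays of an organ. Their mean correlation was 0.896 with the tumors, 0.849 with lymph node, 0.812 with kidney and 0.764 with liver. One array of each organ, replicate 1, had weak signal at the 5′ end of the control transcripts: its 3′ minus 5′ difference was 5.45 to 6.45, against 0.49 and 0.85 in the lines and 0.08 to 0.72 on the other organ arrays. Each organ pair thus set a weak array against a full one, which the pair of lines did not, so their SDs are not on equal terms. The part of RNA quality in the organ SDs was not tested.

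Against the organs, 1135 probe sets were higher in the lines (4.76% of those tested) and 909 were lower (3.81%). With 1 probe set kept for each of 6540 named genes, 603 genes were higher (9.22%) and 375 lower (5.73%), and over 8-fold differences were found for 83 and 95 of them. The median difference over all genes was 0.11, and lists of genes are read against that value. Both lines lay above all 6 organ samples for 580 of the 603 higher genes and below all 6 for 255 of the 375 lower genes. Over all 6540 genes, called or not, both lines lay above all 6 for 1465 genes and below all 6 for 782. On the 5 arrays with full 5′ signal alone, each organ had 1 array and 1 residual degree of freedom was left. Calls from that fit are given with the alternatives at the end. All 978 called genes kept their direction on these arrays. Differences of the 20 leading higher genes were 0.88 to 1.12 times those of the main fit, and of the 20 lower 0.926 to 1.045 times. These arrays also entered the main fit, so this is not an independent check. With the replicate number of the organ samples as a block, 2038 probe sets were higher and 1419 lower. The labels do not say whether a number marks 1 dog, and replicate 1 was the array with weak 5′ signal in each organ. Pairing and RNA quality therefore cannot be told apart in these block counts. Leaving out 1 line left 241 higher and 210 lower without line 1, and 280 and 207 without line 2. With each organ reduced to 1 averaged profile, limma called 0 probe sets at 0.01, 765 at 0.05, and 5342 had an unadjusted p under 0.05.

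The organs were not equally far from the lines. Against kidney 395 genes were higher in the lines (6.04%) and 281 lower (4.3%), against liver 543 (8.3%) and 338 (5.17%), and against lymph node 246 (3.76%) and 183 (2.8%). These contrasts share the 2 lines and their counts were not tested against each other. Only 144 genes passed as higher (2.2%) and 26 as lower (0.398%) against every organ separately. In a fit of all 23 arrays, the lines were higher than the tumors for 382 genes (5.84%) and lower for 191 (2.92%). Of the 20 genes furthest higher among those with both lines outside the organ range, 15 passed against every organ, and of the 20 furthest lower, 10. Without any 1 of the 8 samples, 11 of the higher ones kept the call (COL5A2, CXCL8, MGARP, COL3A1, GPX8, LOC485338, KIF23, DSCC1, CDK2AP1, QPCT and COL5A1) and 14 of the lower ones (DLA-DRA, SELENOP, CTSS, C6, PECAM1, N4BP2L1, APOC1, CFI, FBP1, ALDH1A1, ACSL5, LOC477072, DPYS and GPX3). The plot of the leading genes shows each of the 8 arrays for these 40 genes.

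Some of the leading genes lie outside the gene groups that follow. MGARP, a protein of the outer mitochondrial membrane linked to hypoxia, read 10.28 and 9.95 in the lines, 3.57 to 6.95 (median 4.03) in the organs and 3.83 to 8.94 in the tumors, so that both lines lay above all other arrays (5.37 ± 0.26, adjusted p = 0.00037). QPCT, which forms the cyclic end of some secreted peptides, read 9.53 and 8.39 against 4.48 to 5.25 (4.23 ± 0.32). CDK2AP1, a binding partner of the S phase kinase CDK2, read 10.45 and 8.67 against 4.88 to 5.57 (4.28 ± 0.45). These 3 passed against every organ, as did LOC485338 (4.74 ± 0.20), which RefSeq annotates as a pseudogene. On the lower side, N4BP2L1, a gene of little known function, read 2.97 and 3.50 in the lines, 8.41 to 10.22 (median 9.55) in the organs and 5.10 to 7.63 in the tumors, and both lines lay below all other arrays (-6.21 ± 0.28, adjusted p = 0.00037). ACSL5, which activates fatty acids in liver and gut, read 4.07 and 4.20 against 7.36 to 11.16 (-5.58 ± 0.29) and also passed against every organ. APOC1, VNN1 and DPYS (a lipoprotein component, a pantetheinase and a pyrimidine-degrading enzyme) differed by -5.72, -4.92 and -4.89, with wide ranges over the organs (3.55 to 11.17 for DPYS). The 3 other lower genes without a name in the annotation are LOC477072, LOC477699 and LOC612422.

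**Figure D1:**
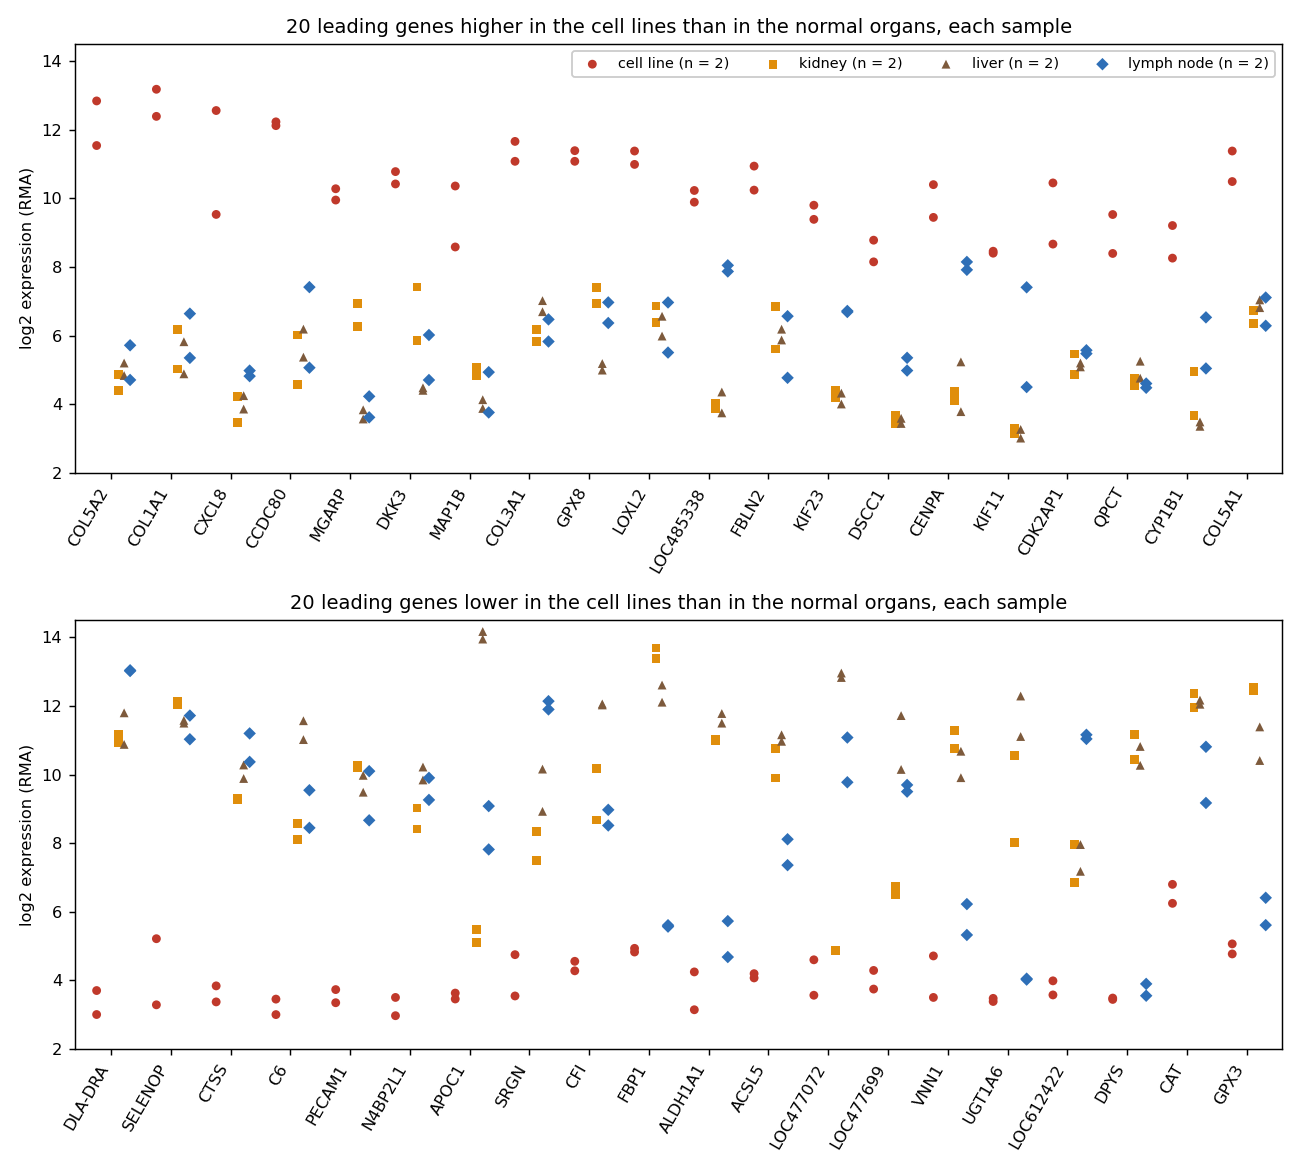
Log2 expression (vertical axis, RMA) of the 20 leading genes higher (upper panel) and lower (lower panel) in the cell lines, 1 point per array, with 2 arrays each for the lines, kidney, liver and lymph node. For each of the 40 genes both lines lie outside the range of the 6 organ samples, a condition used in choosing them, and several lower genes such as FBP1, DPYS and GPX3 are low in lymph node too.

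Genes of the collagen matrix led the higher side. COL5A2 encodes a chain of type V collagen, which starts the assembly of collagen fibrils. It read 12.84 and 11.54 in lines 1 and 2, against 4.86 and 4.40 in kidney, 5.20 and 4.84 in liver and 5.72 and 4.71 in lymph node. The lines lay far above every organ sample, by 7.24 ± 0.42 or 151-fold (adjusted p = 0.00044), although 1 of the gene's 3 other probe sets showed a difference near 0 (-0.02). COL1A1, a chain of type I collagen and the main protein of bone matrix, read 13.18 and 12.39 in the lines and 4.88 to 6.64 in the organs. The difference was 7.13 ± 0.51, or 140-fold (adjusted p = 0.00072). COL3A1, the type III collagen of pliable connective tissue, differed by 5.03 ± 0.26 and COL5A1 by 4.22 ± 0.32 (adjusted p = 0.00037 and 0.00086). These 4 collagen genes passed against each organ separately.

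Enzymes and helpers of collagen followed. LOXL2, which oxidizes lysines so that collagen chains can be cross-linked, read 11.38 and 10.99 in the lines and 5.50 to 6.97 (median 6.48) in the organs, a difference of 4.81 ± 0.41 (adjusted p = 0.0012). P4HA2, a subunit of the prolyl hydroxylase that stabilizes the collagen helix, differed by 2.995 ± 0.34, and SERPINH1, the collagen chaperone of the endoplasmic reticulum (ER), by 2.18 ± 0.28. Matrix proteins that attach to the fibrils were also higher, among them FBLN2 (4.62 ± 0.55), the matricellular THBS2 (3.98 ± 0.43), the proteoglycan BGN (2.87 ± 0.33) and COL6A1 (2.23 ± 0.16). CCDC80, a secreted matrix protein outside the list, read 12.23 and 12.12 in the lines against 4.58 to 7.41, a difference of 6.40 ± 0.68 (adjusted p = 0.0023). Of 35 extracellular matrix genes measured, 12 were higher and 2 lower, the median was 2.07 and 7 were higher against every organ. Without line 1, 10 of the 14 calls were lost, and without line 2, 6.

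Several matrix genes with high values in the lines did not pass. COL1A2, the partner chain of COL1A1, read 12.93 and 11.03 in the lines and 7.61 to 10.04 in the organs (3.52 ± 0.65, adjusted p = 0.015), and 2 of its 4 other probe sets had the opposite sign. SPARC (osteonectin), a collagen-binding protein of bone, read 12.02 and 11.76 against 6.82 to 10.32 (adjusted p = 0.032). Fibronectin (FN1) is also a plasma protein made by liver, and its values of 11.39 and 10.60 lay within the organ range of 6.70 to 12.49. The array with weak 5′ signal of each organ read higher than its partner for COL1A1 (6.18 against 5.02 in kidney) and SPARC (10.32 against 9.02), and the part of RNA quality in these values was not tested.

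Set beside tumor tissue, the fibrillar collagens of the lines lay within or near the tumor range, whereas some stromal matrix genes lay below it. COL1A1 ranged over 9.58 to 13.94 (median 13.49) in the 15 tumors and the lines differed from them by -0.38 ± 0.74 (adjusted p = 0.78), and for COL3A1 and COL5A2 the differences were -0.11 ± 0.80 and 0.65 ± 0.52. ASPN (asporin), a small proteoglycan of connective tissue cells, was the opposite case. It read 3.27 and 3.15 in the lines, 5.53 to 8.24 in the organs and 4.35 to 13.31 (median 11.12) in the tumors, so that the lines were lower than the organs by 4.17 and lower than the tumors by 7.01 (adjusted p = 0.0018 and 0.0066). DPT (dermatopontin), which binds decorin and collagen, read 7.09 and 4.23 in lines 1 and 2, 4.93 to 8.26 in the organs and 8.49 to 12.23 in the tumors (lines minus tumors -5.04 ± 0.88, adjusted p = 0.00084). Over the 35 matrix genes the median of lines minus tumors was -0.71, with 0 genes higher and 4 lower in the lines. In a bulk tumor the RNA of stromal cells and that of cancer cells cannot be told apart.

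**Figure D2:**
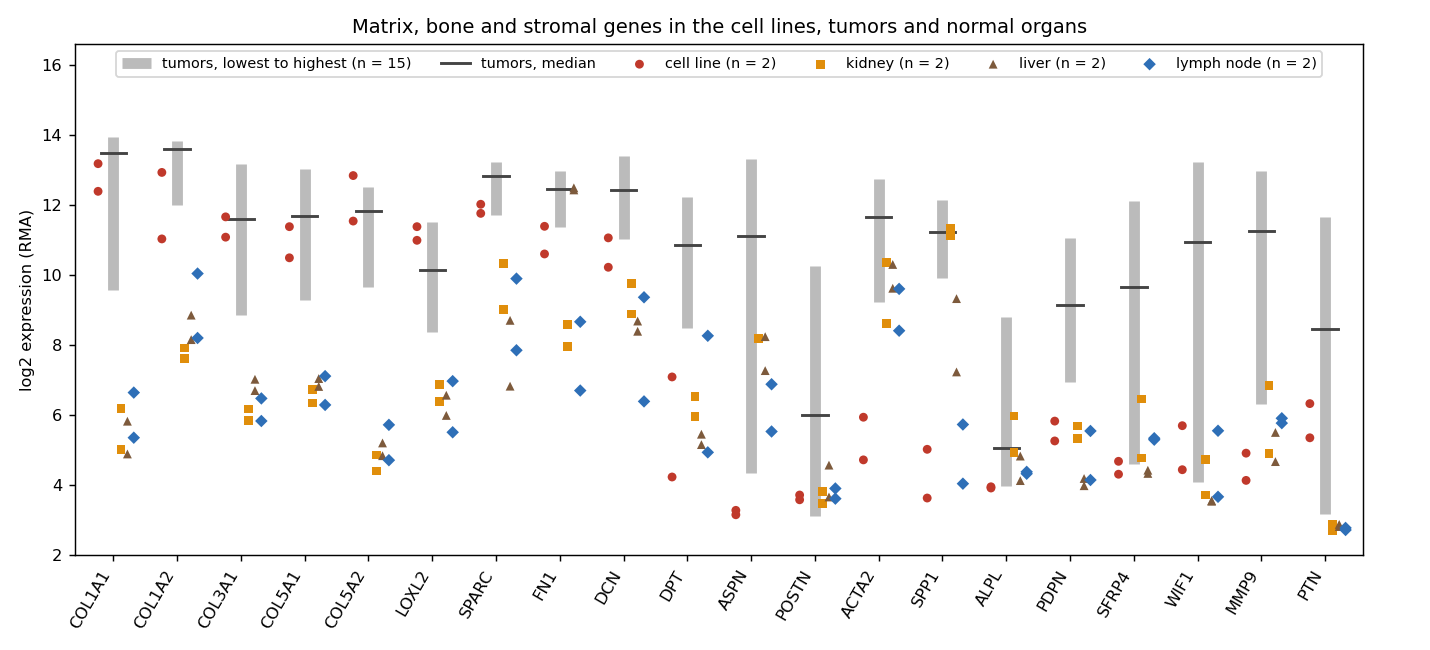
Log2 expression (vertical axis, RMA) of 20 matrix, bone and stromal genes in each of the 2 cell lines and 6 organ samples (points) and over the 15 tumors (grey bar from lowest to highest, dark line at the median). COL1A1, COL3A1 and COL5A2 of the lines lie within or near the tumor range, whereas ASPN, DPT, ACTA2, SPP1 and PDPN of both lines lie below all tumors.

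Bone matrix and osteoblast genes were called higher at a share close to that of all genes. Of 12 measured, COL1A1 was the 1 called higher and 0 were lower, where 9.22% of all genes were higher and 5.73% lower. The median difference was 0.18, against 0.11 for all genes. SPP1 encodes osteopontin, a phosphoprotein of mineralized matrix that kidney also makes. It read 5.02 and 3.63 in the lines, 4.04 to 11.34 in the organs (adjusted p = 0.015) and 9.91 to 12.15 (median 11.23) in the tumors, and the lines were 6.82 below the tumors (adjusted p = 1.1e-06). ALPL, the alkaline phosphatase that releases phosphate for mineral, read 3.95 and 3.91 in the lines and 4.12 to 5.97 in the organs. BGLAP (osteocalcin) read 4.84 and 4.59 against 5.51 to 6.27, with an opposite sign on its other probe set. RUNX2, the transcription factor that commits cells to the osteoblast lineage, read 4.67 and 4.48 in the lines, 4.22 to 4.68 in the organs and 4.49 to 5.76 in the tumors, so this probe set separated neither. PDPN (podoplanin), carried by early osteocytes and by lymphatic vessels, read 5.82 and 5.26 in the lines and 6.94 to 11.06 in the tumors (lines minus tumors -3.42 ± 0.75, adjusted p = 0.0048). Of 10 osteoblast markers, 7 were measured, and their mean was 8.09 in line 1, 7.40 in line 2, 6.17 to 7.18 in the organs and 9.51 in the tumors. Of the markers that define osteoblasts, COL1A1, COL1A2 and SPARC were above all organ samples in both lines, ALPL and BGLAP were below them, and RUNX2 and SPP1 overlapped with them.

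Genes of the cytoskeleton, of adhesion and of caveolae were mostly on the higher side, with 31 of 35 differences above 0. Of the 35 measured, 15 were higher and ACTA2 was the 1 lower, with a median of 2.23 against 0.11 for all genes. CAV1 (caveolin-1), the coat protein of caveolae, read 12.50 and 11.48 in the lines and 6.54 to 8.99 (median 8.02) in the organs, a difference of 4.09 ± 0.47 (adjusted p = 0.003). FLNA (filamin A), which cross-links actin, differed by 3.62 ± 0.34 and all 4 of its other probe sets had the same sign. LGALS1 (galectin-1), the calcium-binding S100A6 and S100A10, and the membrane-binding ANXA1 differed by 3.63 ± 0.18, 3.62 ± 0.20, 3.19 ± 0.15 and 3.29 ± 0.15 (adjusted p = 0.00037, 0.00041, 0.00037 and 0.00037). These 4 genes, with FLNA and S100A11, kept the call without any 1 of the 8 samples. Of the 16 calls, 9 were lost without line 1 and 9 without line 2. VIM (vimentin), the intermediate filament of mesenchymal cells, read 13.97 and 13.80 in the lines against 10.42 to 12.50, a difference of 2.49 ± 0.30.

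A smooth muscle form of actin was lower in the lines. ACTA2, an actin of smooth muscle, pericytes and activated fibroblasts, read 5.93 and 4.72 in the lines, 8.41 to 10.35 (median 9.61) in the organs and 9.22 to 12.75 in the tumors. The lines lay below every organ sample and every tumor, with a difference of -4.16 ± 0.60 from the organs (adjusted p = 0.0063) and -5.95 ± 0.86 from the tumors (adjusted p = 0.00013). MAP1B, a microtubule-binding protein best known from growing axons, was on the other side. It read 10.36 and 8.58 in the lines and 3.76 to 5.07 (median 4.49) in the organs, a difference of 5.04 ± 0.52 (adjusted p = 0.0021), and ranged over 7.32 to 10.34 in the tumors. Over the 35 cytoskeleton genes the median of lines minus tumors was 0.23, with 1 gene higher and 1 lower in the lines.

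Genes of cell division had the highest share of members called higher among the lists. Of 30 mitosis genes measured, 20 were higher, 0 were lower and 29 differences were above 0, with a median of 2.26 against 0.11 for all genes. KIF23, a kinesin of the midbody needed for the final cut between daughter cells, read 9.39 and 9.80 in the lines, against 4.19 and 4.41 in kidney, 4.32 and 4.01 in liver and 6.72 and 6.69 in lymph node. The lines exceeded the node by 2.89, kidney by 5.30 and liver by 5.43, and the mean difference was 4.54 ± 0.17 (adjusted p = 0.00026). AURKA, the kinase of the spindle poles, read 7.70 and 7.59 against 3.24 to 4.96 (3.88 ± 0.32, adjusted p = 0.0011), and TPX2, which activates AURKA on the spindle, differed by 3.02 ± 0.26. FOXM1 and MYBL2, transcription factors that switch on mitotic genes, differed by 2.70 ± 0.18 and 3.10 ± 0.23 (adjusted p = 0.00063 and 0.00083). CENPA, the histone of centromeres, and the spindle motor KIF11 had larger mean differences (4.33 ± 0.43 and 4.33 ± 0.69), but the KIF11 call did not hold when single samples were left out: it was lost in 6 of 8 such fits. Of the 20 calls, 14 were lost without line 1 and 16 without line 2.

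The size of the division signal depended on the organ. The median of the mitosis genes stood 2.97 above kidney, 2.67 above liver and 1.27 above the node, with 17, 19 and 5 genes called higher. The medians over all genes in these contrasts were 0.13, 0.17 and 0.09. The 5 that passed against every organ were KIF23, AURKA, TPX2, FOXM1 and CKAP2, a spindle-associated protein. AURKB, the kinase that corrects chromosome attachments, read 8.58 and 8.45 in the lines and 7.82 and 7.78 in lymph node, so that its mean difference of 1.99 ± 0.13 came mostly from kidney (2.46) and liver (2.78). Against the tumors the median was 1.45, and 7 of the 30 genes were higher in the lines.

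**Figure D3:**
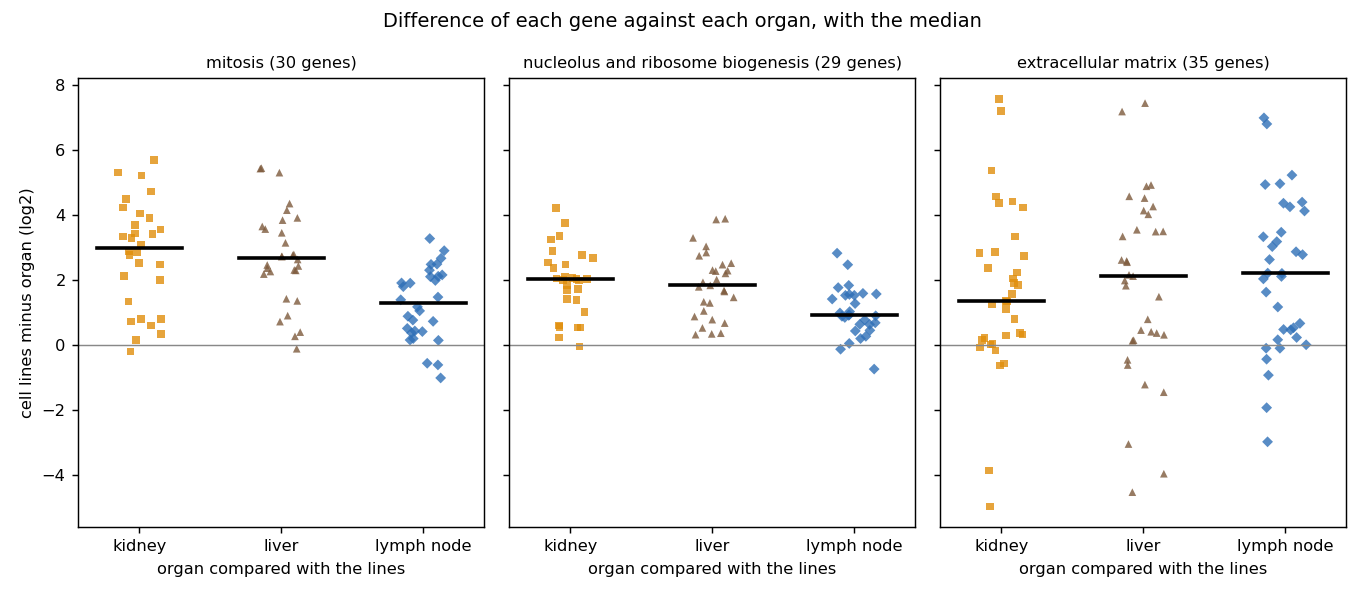
Difference of the cell lines from each organ (vertical axis, log2) for every measured gene of 3 lists, 1 point per gene with the median as a black line. Mitosis genes lie 2.97 above kidney and 1.27 above lymph node at the median, and matrix genes 1.34 above kidney, 2.11 above liver and 2.19 above lymph node.

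Replication and repair genes differed less than the mitotic ones. Of 19 replication genes, 6 were higher and 0 lower (median 1.46), and none of the 6 passed against lymph node alone. PCNA, the sliding clamp of DNA polymerase, read 10.78 and 10.82 in the lines and 6.56 to 10.11 (median 7.60) in the organs (2.67 ± 0.29, adjusted p = 0.0025), with the node only 0.91 below the lines. ORC6, a subunit of the complex that marks replication origins, differed by 2.33 ± 0.14 and was the 1 of the 6 that kept its call without any 1 sample, since 5 were lost without line 1 and 5 without line 2. DSCC1, which loads the clamp when sister chromatids are joined, stood outside the list and read 8.78 and 8.15 against 3.44 to 5.35 (4.39 ± 0.21, adjusted p = 0.00037). Of 17 repair genes, 4 were higher, among them RAD18 (2.40 ± 0.12), the ubiquitin ligase that marks stalled clamps, and FANCI (2.59 ± 0.32) of the cross-link repair pathway.

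Of 29 nucleolar genes of ribosome assembly measured, 18 were higher and 0 lower (median 1.66). DDX21, an RNA helicase of the nucleolus, read 8.50 and 8.33 in the lines and 4.87 to 6.96 (median 5.32) in the organs, a difference of 2.69 ± 0.18 (adjusted p = 0.0006). GNL2, a GTPase of large subunit assembly, differed by 2.65 ± 0.28 and BYSL, an assembly factor of the small subunit, by 1.92 ± 0.17. The box C/D proteins NOP56, NOP58 and FBL (fibrillarin), which methylate ribosomal RNA, differed by 2.002 ± 0.26, 2.40 ± 0.27 and 1.80 ± 0.16, and the lymph node lay within 1.02, 0.84 and 0.67 of the lines. NOP14 had the largest difference of the called members (2.84 ± 0.18), but the other probe set of NOP14 and that of NOP58 had differences of the opposite sign (-0.34 and -0.34). Of the 18 nucleolar calls, 14 were lost without line 1 and 16 without line 2. Of 62 cytosolic ribosomal proteins, 2 were higher and 1 lower, with a median of 0.19.

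Genes that make nucleotides and amino acids were higher at single steps. Among 14 nucleotide synthesis genes 4 were higher and 0 lower, and all 4 calls were lost without either line. MTHFD1L, a mitochondrial enzyme of the folate cycle that yields formate, read 9.41 and 9.10 in the lines and 4.65 to 6.74 (median 5.49) in the organs (3.80 ± 0.40, adjusted p = 0.0022). TYMS, which makes thymidylate, differed by 1.62 ± 0.22. Among 22 genes of amino acid synthesis and tRNA charging, 9 were higher and 0 lower, with a median of 1.30 that was close to the same against each organ (1.36, 1.20 and 1.22). ASNS (asparagine synthetase) read 8.84 and 8.80 against 4.64 to 5.61, a difference of 3.61 ± 0.25 (adjusted p = 0.00069), and passed against every organ. Of the 9 calls of this list, 7 were lost without line 1 and 6 without line 2. All 3 enzymes that turn a glycolytic intermediate into serine were higher: PHGDH by 2.24 ± 0.33, PSAT1 by 3.37 ± 0.32 and PSPH by 1.58 ± 0.25. PHGDH of kidney lay near the lines (0.54), and liver lay 4.09 below them.

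Of 49 genes that fold proteins in the ER or carry them through it, 15 were higher and 0 lower, 43 differences were above 0 and the median was 1.12. SEC61B, a subunit of the channel through which new proteins enter the ER, read 11.45 and 11.54 in the lines and 9.31 to 10.43 (median 9.99) in the organs (1.58 ± 0.13, adjusted p = 0.0012), and was the 1 gene of the list to pass against every organ. KDELR3, which returns escaped ER proteins, differed by 2.21 ± 0.25, the cargo receptor LMAN1 by 2.02 ± 0.19, the COPI coat subunit ARCN1 by 2.22 ± 0.30 and the COPII coat subunit SEC23A by 1.75 ± 0.23. Against the tumors the list's median was 0.26, with 2 genes higher in the lines. Each of the 15 calls was lost without line 1 and also without line 2. The proteasome, which degrades proteins, had 6 of 28 subunits higher and 0 lower, among them PSMD14 (1.83 ± 0.18) and PSMB5 (1.56 ± 0.14), and the pre-mRNA splicing list had 6 of 33 higher, among them HNRNPU (1.85 ± 0.18), and 1 lower. All 6 proteasome and all 7 splicing calls were lost without line 1 and also without line 2.

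Of 30 genes of glycolysis and hypoxia 5 were higher and 0 lower, with a median of 0.67. PKM, the pyruvate kinase of dividing cells and muscle, read 7.55 and 7.87 in the lines and 4.36 to 5.43 (median 4.77) in the organs (2.88 ± 0.29, adjusted p = 0.0019). Of the 5 calls, 3 were lost without line 1 and 3 without line 2. PFKP, a phosphofructokinase, differed by 2.48 ± 0.16, and PKM and PFKP passed against every organ. The glucose transporter SLC2A1 differed by 2.29 ± 0.36 and the hexokinase HK1 by 1.89 ± 0.27. On the opposite side was FBP1, the liver and kidney enzyme that runs the phosphofructokinase step backwards to make glucose. It read 4.93 and 4.83 in the lines against 13.69 and 13.39 in kidney, 12.61 and 12.11 in liver and 5.57 and 5.61 in lymph node (-5.61 ± 0.18, adjusted p = 0.00026). Subunits of the respiratory chain were called rarely, with 2 of 51 higher, 2 lower and a median of -0.04, against 0.11 for all genes. Centring arrays on their medians raised this median to 0.08, a shift that all lists share.

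The MHC class II list had the lowest median of all lists. MHC class II molecules show peptides to helper T cells and are normally carried by B cells, macrophages and dendritic cells. DLA-DRA, the class II alpha chain of the dog, read 3.01 and 3.71 in the lines, against 10.94 and 11.18 in kidney, 11.80 and 10.88 in liver and 13.04 and 13.02 in lymph node. Both lines lay below the lower quartile of their own probe sets, 3.81 and 3.87, so the difference of -8.45 ± 0.30 (adjusted p = 0.00026) was taken against values at the floor of the scale and is not given as a fold. DLA-DQA1, DLA-DQB1 and HLA-DRB1, named so in the annotation, differed by -4.74 ± 0.34, -3.92 ± 0.25 and -4.73 ± 0.59, the last with the opposite sign on 1 of its 4 other probe sets. CTSS (cathepsin S), the protease that prepares class II molecules for loading, read 3.84 and 3.37 against 9.26 to 11.20 (-6.44 ± 0.27, adjusted p = 0.00034), and all 4 of its other probe sets had the same sign. Of 6 class II genes, 5 were lower, 2 of these calls were lost without line 1 and 2 without line 2, and the median was -4.74. MHC genes have near-identical copies, so a probe set may bind more than 1 of them. In organs read as bulk RNA, fewer cells of a type and less RNA per cell cannot be told apart.

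Class I presentation, which nearly all nucleated cells carry, was lower at its light chain and at its special proteasome subunits. B2M, the light chain shared by all class I molecules, read 10.47 and 9.66 in the lines, 12.80 to 13.21 (median 12.93) in the organs and 11.78 or more in the tumors. Both lines lay below every organ sample and every tumor, with a difference of -2.92 ± 0.23 from the organs (adjusted p = 0.001) and -2.17 ± 0.27 from the tumors (adjusted p = 2.8e-05). The immunoproteasome subunits PSMB8 and PSMB9, which interferon raises, differed by -3.77 ± 0.48 and -2.70 ± 0.41, and IRF2, an interferon regulatory factor, by -1.88 ± 0.18. The heavy chain gene DLA-79 differed by -3.03 ± 0.35, while DLA88 read 10.34 and 10.68 in the lines against 10.23 to 12.96 and did not pass (adjusted p = 0.042). The peptide transporters TAP1 and TAP2 differed by -0.62 ± 0.28 and 0.56 ± 0.22 (adjusted p = 0.18 and 0.13). Of 10 class I genes 5 were lower and 0 higher (4 were lost without line 1 and 3 without line 2), and 2 of 11 interferon response genes were lower.

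Among markers of blood and vessel cells, most differences were negative. As a check of the cell line label, 7 of 8 defining macrophage markers, 4 of 9 lymphocyte markers and 3 of 6 endothelial markers were measured. Both lines lay below all 6 organ samples for 6 of the 7, 3 of the 4 and 3 of the 3. Over all 6540 genes this held for 782. All 23 macrophage and myeloid genes measured had a negative difference (median -2.49), 10 of them called, of which 8 were lost without line 1 and 8 without line 2. CSF1R, the receptor that keeps macrophages alive, read 3.91 and 4.80 in the lines, 5.91 to 10.33 in the organs and 7.64 to 11.60 in the tumors (-4.22 ± 0.63, adjusted p = 0.0071). The mean of the macrophage list was 4.71 and 4.70 in the lines, 5.83 to 8.33 over the organ samples and 6.38 to 8.60 over the tumors. PECAM1, the junction protein of endothelium that leukocytes also carry, read 3.73 and 3.35 against 8.67 to 10.27 (-6.24 ± 0.38, adjusted p = 0.00049), with the same sign on all 6 other probe sets. Of 12 endothelial genes 2 were lower, PECAM1 and the receptor TEK, and 3 differences were positive. RAC2, a small GTPase of blood cells, was the 1 lymphocyte list member lower against every organ (-4.47 ± 0.23), and 4 of 17 were lower in all and 2 had positive differences. CD3D of T cells, 1 of the 4, read 4.39 and 4.38 against 4.83 to 11.07. SRGN (serglycin), the granule proteoglycan of blood and endothelial cells, read 3.55 and 4.75 against 7.49 to 12.14 (-5.68 ± 0.47).

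One epithelial gene stood above tumor level in both lines. EPCAM, an adhesion molecule of epithelia, read 7.03 and 5.03 in lines 1 and 2, 3.03 to 3.99 in the tumors and 3.63 to 11.03 in the organs. Both lines exceeded every tumor (2.55 ± 0.31, adjusted p = 2.7e-05), and against the organs the gene did not pass (adjusted p = 0.056). Keratin genes KRT8 and KRT18 read 7.57 and 7.36 in line 1 and 6.64 and 5.12 in line 2, against 6.60 to 7.68 and 5.26 to 6.34 in the tumors. CDH1 (E-cadherin), the adhesion protein that holds epithelia together, read 4.16 and 4.15 in the lines and 4.02 to 4.53 in the organs, kidney and liver included. Of 14 epithelial junction and keratin genes, 3 were lower than in the organs and 0 higher.

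Complement proteins circulate in plasma and are made mostly by liver. Of 9 complement and coagulation genes, 6 were lower and 1 higher (median -3.54), and of these 7 calls 4 were lost without line 1 and 3 without line 2. CFI, the protease that inactivates complement, read 4.56 and 4.28 in the lines, 8.52 to 12.06 (median 9.57) in the organs (-5.65 ± 0.39, adjusted p = 0.00064), and SERPING1, the inhibitor of the first component, differed by -4.17 ± 0.35. CFI and SERPING1 passed against every organ. C1S and C1R, proteases of that component, differed by -3.66 ± 0.21 and -3.54 ± 0.44, and the lines were also below the tumors by 3.24 and 3.01 (adjusted p = 0.0019 and 0.00049). C6, a part of the membrane attack complex, read 3.004 and 3.46 in the lines, 8.11 to 11.57 in the organs and 3.04 to 6.83 in the tumors (-6.32 ± 0.34 against the organs, adjusted p = 0.0004). The exception was TFPI2, a protease inhibitor of the matrix, which read 11.36 and 9.32 against 4.48 to 8.98 (3.97 ± 0.51, adjusted p = 0.0042), while its relative TFPI, the inhibitor of tissue factor, was lower (-3.21 ± 0.49).

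Genes of liver and kidney function were lower mainly, but not only, against the organ that uses them. Of 50 hepatocyte genes, 27 were lower and 0 higher, but the median was -5.08 in the liver contrast, -0.37 in that of kidney and -0.11 in that of lymph node. ALB (albumin) read 3.36 and 3.39 in the lines, 13.22 and 13.22 in liver and at most 4.12 in the other organs. Of the 27 calls, 10 were lost without line 1 and 9 without line 2. C6 was the 1 hepatocyte list member lower against every organ. Of 20 kidney tubule genes 8 were lower (5 were lost without line 1 and 5 without line 2), among them CLTRN, the membrane protein collectrin (-4.52 ± 0.22), the amino acid transporter subunit SLC3A1 (-3.79 ± 0.22) and the sodium pump subunit FXYD2 (-2.30 ± 0.20). Against lymph node these 3 differed by 0.03, -1.14 and -0.39.

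Detoxifying enzymes had mostly negative differences. Of 34 drug and retinoid metabolism genes, 28 differences were below 0, 15 genes were lower and 2 higher, and 0 passed against every organ. The median was -3.62 in the liver contrast, -0.60 in that of kidney and -0.20 in that of lymph node. ALDH1A1, which makes retinoic acid, read 4.25 and 3.15 in the lines, 5.73 and 4.68 in lymph node and 10.99 to 11.78 in kidney and liver (-5.59 ± 0.38, adjusted p = 0.00061). UGT1A6, a glucuronosyltransferase of a family whose near-identical copies may share a probe set, differed by -4.91 ± 0.66 (adjusted p = 0.005). Of the 17 calls, 13 were lost without line 1 and 12 without line 2. The 2 higher genes were CYP1B1, an extrahepatic cytochrome of hormone and hydrocarbon metabolism, and NQO1, a quinone reductase under the control of the stress factor NRF2. CYP1B1 read 9.21 and 8.26 against 3.35 to 6.53 (4.23 ± 0.52, adjusted p = 0.0037). NQO1 read 11.91 and 11.68 in the lines, 6.14 and 5.13 in lymph node and 6.23 to 11.87 in the tumors (3.41 ± 0.31, adjusted p = 0.0015), and its difference was 2.34 from kidney, 1.73 from liver and 6.16 from the node.

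Among genes of peroxide and selenium metabolism that led either side, GPX8 was higher and SELENOP, CAT and GPX3 were lower. SELENOP, the selenium carrier that liver secretes and many tissues express, read 5.22 and 3.29 in the lines, 11.03 to 12.12 (median 11.65) in the organs and 8.70 to 11.73 in the tumors (-7.41 ± 0.49, adjusted p = 0.00059). It passed against every organ, and the lines were also 5.87 below the tumors (adjusted p = 9.5e-06). CAT (catalase), which breaks down hydrogen peroxide in peroxisomes, read 6.80 and 6.25 against 9.17 to 12.37 (-4.89 ± 0.43, adjusted p = 0.0013), with the same sign on 4 other probe sets. GPX3, the secreted glutathione peroxidase of kidney, read 4.77 and 5.07, and lymph node at 6.41 and 5.61 was not far above. GPX8, a peroxidase of the ER membrane, was on the other side, with 11.39 and 11.08 in the lines against 4.99 to 7.41 (median 6.64), a difference of 4.92 ± 0.23 (adjusted p = 0.00037) that held against every organ. Of 25 genes of fatty acid oxidation and the peroxisome, CAT, DECR1 and ACAA1 were lower and 0 higher.

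Among secreted signals, the chemokine CXCL8 (interleukin-8), which draws neutrophils, stood out. It read 9.53 and 12.56 in lines 1 and 2, 3.47 to 4.98 (median 4.24) in the organs and 4.13 to 12.76 (median 8.19) in the tumors. The lines exceeded every organ sample, by 6.78 ± 0.74 (adjusted p = 0.0025), but they also differed from each other by 3.03, and the gene missed the threshold against lymph node (adjusted p = 0.011). Of 26 cytokine genes, CXCL8 and the receptor TNFRSF1A were higher, and 4 were lower, where 9.22% of all genes were higher and 5.73% lower. Of these 6 calls, 4 were lost without line 1 and 4 without line 2. One of the lower genes was IL33, an alarm cytokine of stromal and endothelial nuclei, with 4.10 and 3.76 against 6.07 to 9.30 (-3.85 ± 0.24). IL6 and PTGS2 read 4.40 and 4.99 and 4.16 and 4.89 against 3.35 to 3.72 and 3.30 to 4.12, and neither passed.

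Of 42 genes of Wnt, TGF-beta and growth factor signalling 5 were higher and 0 lower, a share of higher genes close to the 9.22% of all genes, and 3 were lost without line 1 and 2 without line 2. DKK3, a secreted relative of the Wnt inhibitors, read 10.42 and 10.78 in the lines, 4.40 to 7.42 (median 5.28) in the organs and 4.28 to 12.55 in the tumors (5.12 ± 0.50, adjusted p = 0.0018). TGFB2, a TGF-beta ligand, read 7.22 and 7.08 against 3.63 to 4.13 (3.29 ± 0.15, adjusted p = 0.00037), and PTN (pleiotrophin), a heparin-binding growth factor, 6.32 and 5.35 against 2.69 to 2.88 (3.04 ± 0.26, adjusted p = 0.0012). These 3 passed against every organ. Other Wnt inhibitors behaved differently from DKK3: SFRP4 read 4.67 and 4.31 and WIF1 5.69 and 4.43 in the lines, against tumor medians of 9.67 and 10.95 and organ ranges of 4.33 to 6.46 and 3.53 to 5.55. NRG1, a ligand of ERBB receptors, read 7.08 and 6.84 in the lines, above all organs (3.995 to 6.17) and tumors (3.82 to 4.63), and passed against the tumors (2.83 ± 0.25, adjusted p = 5.2e-07) but not against the organs (adjusted p = 0.022).

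Of 19 genes known from osteosarcoma or other cancers, 3 were higher and 0 lower, where 9.22% of all genes were higher and 5.73% lower. The 3 were BIRC5 (survivin), which guards mitosis and blocks cell death (2.49 ± 0.28), AURKB, and COPS3 (1.39 ± 0.13). COPS3 is a subunit of the COP9 complex from a region often amplified in human osteosarcoma. BIRC5 and AURKB are also members of the mitosis list. EZR (ezrin), a membrane-actin linker studied in metastasis, read 10.59 and 10.73 in the lines and 8.20 to 11.46 in the organs (adjusted p = 0.1). MET and ERBB2, receptor kinases, read 7.46 and 5.60 and 5.18 and 4.81 against 5.12 to 7.50 and 4.34 to 4.76 (adjusted p = 0.68 and 0.17). FOS, an early response factor, was at 4.40 and 5.14 in the lines and 7.98 to 12.33 in the tumors (lines minus tumors -4.95 ± 0.89, adjusted p = 0.0011). Of the genes the study listed for canine tumors, 14 were matched by symbol here, C1orf21 as C7H1orf21. COL1A1, CXCL8, MAP1B, LOXL2, TFPI2, PTN and C7H1orf21 were higher in the lines, 0 were lower, and of the 7 calls 4 were lost without line 1 and 2 without line 2. C7H1orf21, a gene of little known function, read 8.31 and 8.77 in the lines and 5.16 to 7.26 in the organs (2.44 ± 0.30, adjusted p = 0.0038). That list was drawn up on arrays of this series, so the count is not independent evidence of a direction. SLC1A3, a glutamate transporter on it, read 3.90 and 5.81 in the lines, 3.79 to 6.40 in the organs and 5.61 to 10.09 in the tumors.

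The remaining lists are given together, beside 9.22% of all genes called higher and 5.73% lower. Several of them are short, so their shares rest on few genes. In the basement membrane, the sheet of laminins and type IV collagen under epithelium, 0 of 14 genes were called (median 0.79). Of 17 genes of cholesterol and fatty acid synthesis CYP51A1, a demethylase of the sterol pathway, was higher (1.20 ± 0.14). Of 9 pericyte and smooth muscle genes MYLK, the kinase of myosin light chain, was higher (1.86 ± 0.29) and ACTA2 lower. Of 8 osteoclast genes the proton pump subunit ATP6V0D2 was lower (-1.36 ± 0.21), with 3.62 and 3.19 in the lines against 3.35 to 7.65. Of 33 lysosome genes GLB1, a beta-galactosidase, was higher (1.76 ± 0.24) and CTSS, CTSZ and LGMN, all proteases, were lower. The 2 interferon response genes that were lower were XAF1 (-2.38 ± 0.20) and UBA7 (-0.96 ± 0.13), the enzyme that charges ISG15. The 1 erythroid gene measured was not called.

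**Figure D4:**
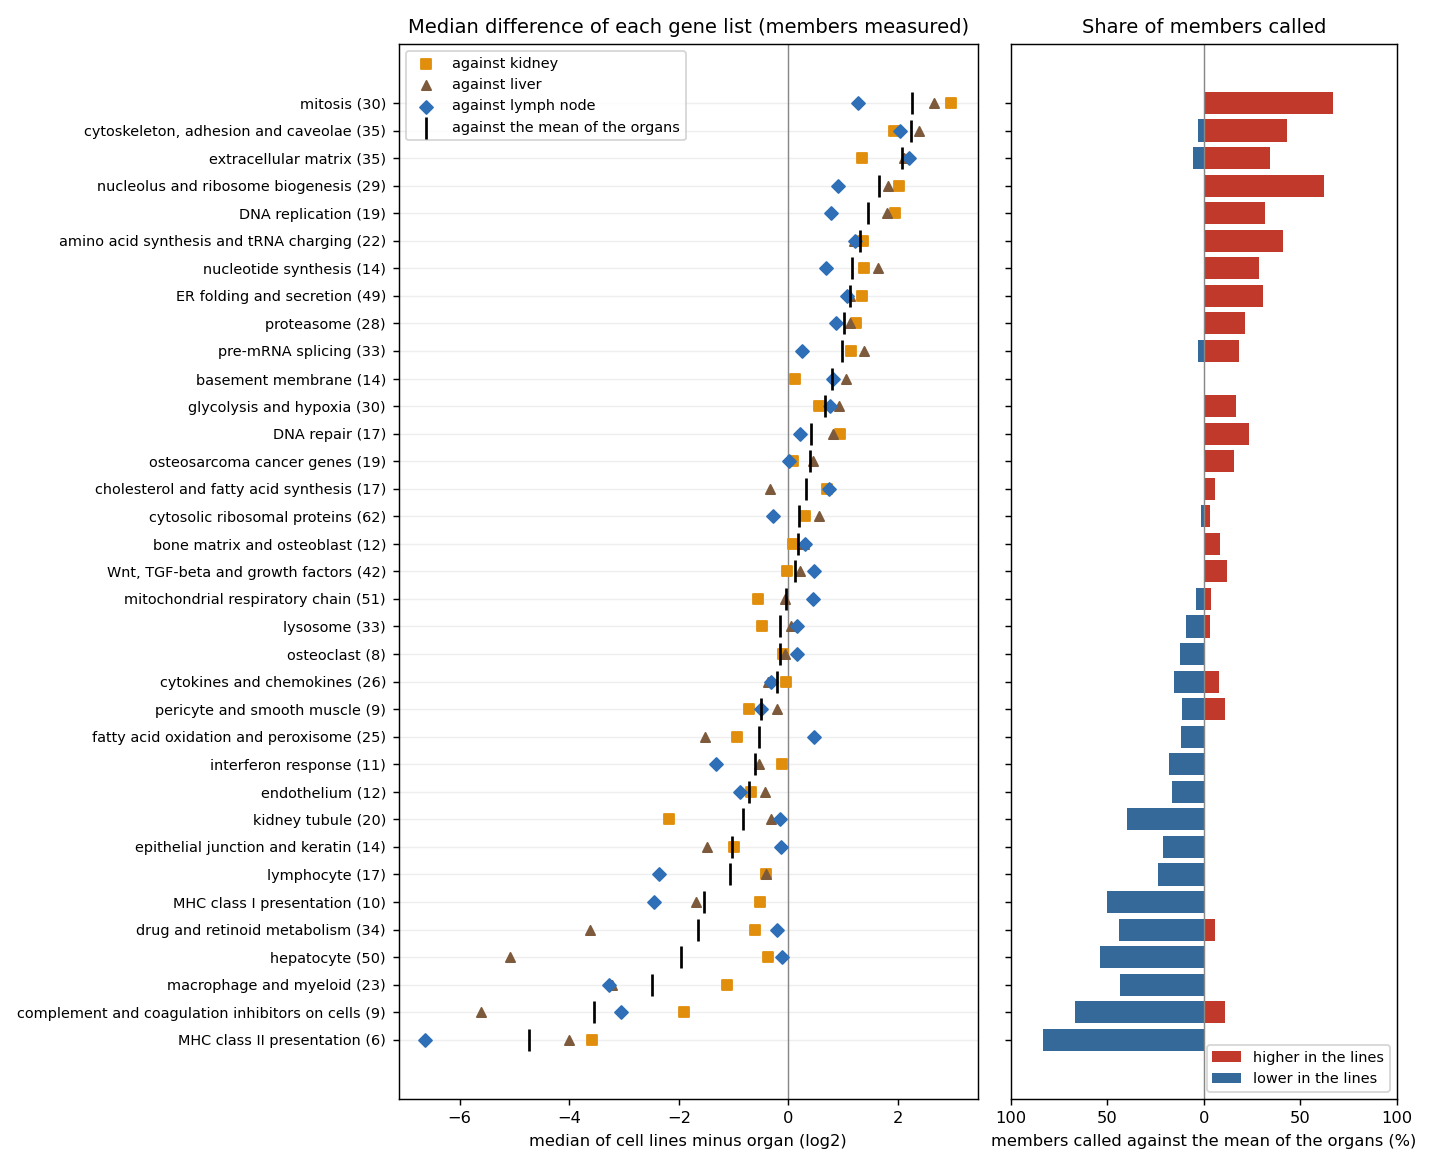
Left, the median difference of the cell lines from each organ and from the mean of the organs (horizontal axis, log2) for 35 gene lists, with the number of measured members in brackets. Right, the share of members called higher or lower against the mean of the organs. Lists are ordered by the median against the mean of the organs. Mitosis (20 of 30 higher), cytoskeleton (15 of 35) and extracellular matrix genes (12 of 35) are at 1 end. MHC class II genes (5 of 6 lower) are at the other, while hepatocyte genes are far lower against liver alone.

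The 2 lines differed from each other by more than 1 for 718 of 6540 genes and by more than 3 for 34, 18 of them higher in line 1 and 16 in line 2. With 1 array per line these are descriptions of 2 arrays and no test was possible. The widest gap was SAA1, an acute phase protein driven by inflammatory signals, which read 4.22 and 11.29 in lines 1 and 2, against 4.28 to 8.42 in the organs and 4.13 to 12.86 in the tumors. Line 1 lay just under the lowest organ sample and line 2 above them all. CCL2, the chemokine that attracts monocytes, read 7.16 and 10.95, NFKBIZ, a nuclear partner of NF-kB, read 3.79 and 7.45, and CXCL8 was higher in line 2 on both its probe sets (by 3.03 and 3.14). NFKBIA, the cytoplasmic inhibitor of NF-kB, was looked up after these values were seen and read 7.61 and 10.26. Line 2 was also higher for MGST1, a membrane glutathione transferase (3.37 and 7.88), for HSPB1, a small heat shock protein (5.43 and 9.52 against 8.69 to 10.81 in the organs), and for ACTG2, an actin of gut smooth muscle (5.21 and 9.71).

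Line 1 was higher for DYNLT3, a light chain of the motor dynein, which read 9.27 and 3.72 in lines 1 and 2, 8.04 to 9.24 in the organs and 7.48 to 10.07 in the tumors. Line 2 thus lay below all other arrays for this gene. GAP43, a growth cone protein of neurons, read 8.99 and 4.75, against 3.89 to 4.89 in the organs. TXNIP, an inhibitor of thioredoxin and of glucose uptake, read 8.95 and 5.26 against 9.86 to 11.57, and COL12A1, a fibril-associated collagen, 10.67 and 7.11. CDKN1A (p21, an inhibitor of cyclin-dependent kinases) and MDM2, the ubiquitin ligase of p53, were 3.31 and 2.73 higher in line 1, with 11.44 and 8.13 and 11.48 and 8.75 against 5.98 to 7.35 and 8.47 to 9.56 in the organs. The second MDM2 probe set differed by 2.91 in the same direction. Both genes were singled out after their values were seen.

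RB1, the retinoblastoma gene that holds back entry into S phase, read 8.05 and 4.50 on the probe set used here, against 7.25 to 8.53 in the organs and 6.72 to 9.98 in the tumors, so that line 2 lay below all other arrays. Of the 2 other RB1 probe sets, 1 read 6.87 and 6.98, a difference of -0.11, and the other read 3.57 and 3.11, below the lower quartile of both lines, where no loss could be seen. Of the 5 measured genes around RB1 in the dog assembly UU_Cfam_GSD_1.0, FNDC3A, SUCLA2 and CDADC1 were higher in line 1 (by 0.74, 0.32 and 0.31), while ITM2B and MED4 differed by -0.35 and -0.09. MTAP, an enzyme of methionine salvage was the reverse case. It read 4.58 and 8.48 in lines 1 and 2, 5.34 to 6.91 in the organs and 5.60 to 8.62 in the tumors, so that line 1 lay below all other arrays on its 1 probe set. DNA was not measured.

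**Figure D5:**
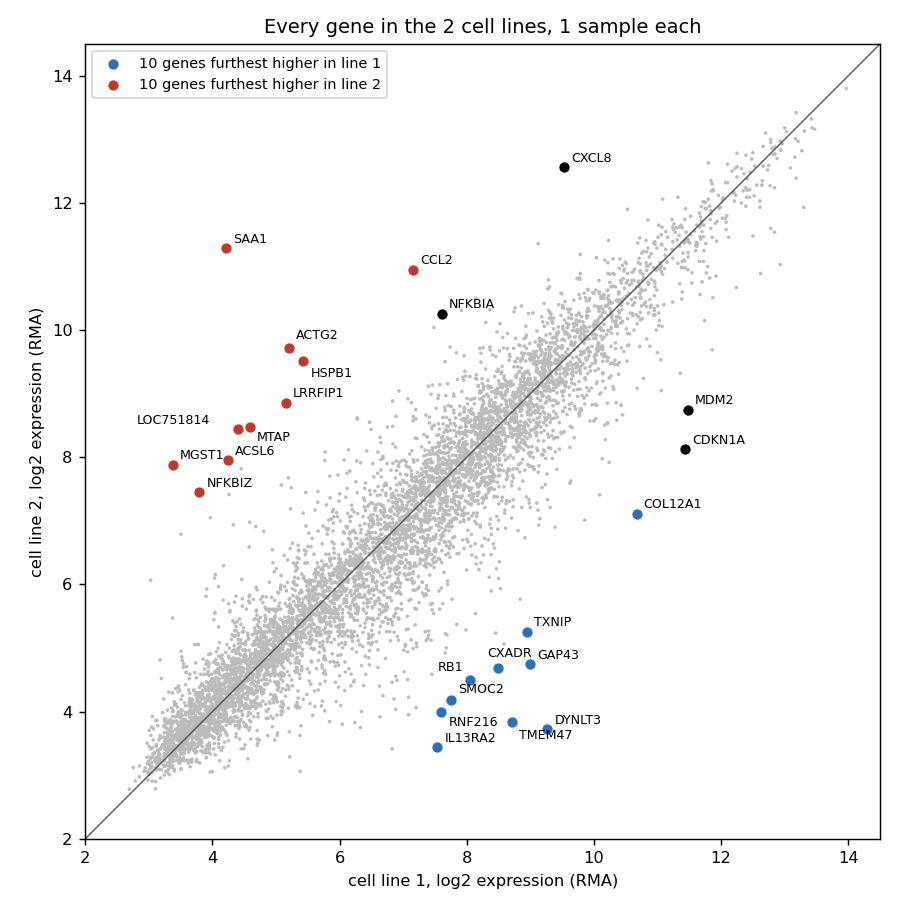
Log2 expression (RMA) of 6540 genes in cell line 1 (horizontal axis) and cell line 2 (vertical axis), 1 array each, with the line of equal values. The 10 genes furthest from it on either side are coloured, and CXCL8, NFKBIA, CDKN1A and MDM2 are marked in black. SAA1, 4.22 in line 1 and 11.29 in line 2, is the furthest point.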

How the data were processed

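RNA of 2 canine osteosarcoma cell lines, 6 normal organ samples and 15 primary tumors was hybridized to Affymetrix Canine Genome arrays. The authors processed the probe intensities by RMA, and the deposited values are log2 expression values of 23913 probe sets. The submitters' processing notes name RMA and affy without versions. Because RMA includes quantile normalization over all arrays, the values show expression relative to the rest of an array and not total RNA.

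After 77 control probe sets were left out, 23836 were tested in R 4.3.3 with limma 3.58.1 (lmFit, then eBayes; two-sided p-values, adjusted by Benjamini-Hochberg, threshold 0.01) on the 8 arrays of the lines and organs in 4 groups, while lines were set against tumors in a fit of all 23. By the platform annotation 10549 probe sets had 1 gene, 138 had several and 13149 had none. For each of the 6540 genes the probe set with the highest mean over 23 arrays was used, also where 2349 genes had several. The fit was tested on simulated data.

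Named genes were the 20 called genes furthest on either side with both lines outside the organ range, up to 6 called members of each list, the 10 genes furthest apart between the lines in each direction, the study's listed genes and the defining markers. Other list members without a call, and NFKBIA, CDKN1A and MDM2, were chosen after their values were seen. The comparison and all lists were chosen with earlier results of these data known. The number of arrays limits the precision.

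Organ samples carry replicate numbers. Same-numbered samples deviated together (Pearson's r of deviations 0.607 between kidney and liver, 0.596 and 0.530 between lymph node and either of them in turn). The main fit did not pair them, and the numbers entered only as the block of an alternative fit. Replicate 1 was also the array with weak 5′ signal in each organ, so pairing and RNA quality cannot be told apart. Alternatives changed the samples, the organ weighting, the block, a 5′ covariate, the scaling, the filter, the prior, the threshold and the probe set of a gene. Promoter and transcript sequences were not used here.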

Additional observations from a re-analysis of the deposited data

Results flagged for a closer look

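Among the control probe sets, which the comparison left out, the means of each spiked-in control were brighter on both cell line arrays than on all 6 organ arrays. For the hybridization controls, added in equal amount before hybridization, the lines exceeded the organs by 2.89 for BioB, 2.07 for BioC, 1.74 for BioDn and 1.55 for CreX on the log2 scale. BioB read 9.62 and 10.37 in lines 1 and 2, 5.96 to 8.35 on the organ arrays and 5.81 to 8.42 on the tumor arrays. For the poly-A controls, which are added to the RNA before labelling, the lines exceeded the organs by 2.08 for DapX, 1.23 for LysX, 0.79 for PheX and 0.93 for ThrX. DapX of line 2 (5.76) lay only just above the highest organ array (5.74), and DapX of the tumors reached 8.85. These values moved with the groups, and their part in the differences of genes was not tested.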

How the results depend on the processing

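Counts of calls depended more on the model than on the scaling. Against the 1135 higher and 909 lower probe sets of the comparison with the organs, the fit of all 23 arrays gave 1728 lower, and the 6 organ samples taken as 1 group gave 415 and 57. With 1 averaged profile per organ, 0 and 0 passed (limma, 5342 with an unadjusted p under 0.05), and on the arrays with full 5′ signal alone 0 and 0 (6805 with an unadjusted p under 0.05, 3407 with an adjusted p under 0.05), where 1 residual degree of freedom was left. The replicate block gave 2038 and 1419, and a threshold of 0.05 gave 2486 and 2118. The higher share of all calls was 55.5%, 64.1% after centring arrays on their medians, which shifted the median difference from -0.05 to 0.06, and 48.0% after a second quantile normalization. Against single organs, probe sets called numbered 1399 for kidney, 1838 for liver and 947 for lymph node. All 23 arrays gave 2167 for kidney and 1593 for lymph node, the block 2495, 3118 and 1799, the 5′ covariate 1613 for lymph node, the full 5′ arrays 0, 409 and 0, and the threshold of 0.05 gave 3383, 4000 and 2670. Of genes passing against every organ, 144 higher became 289 with the block, 227 with the 5′ covariate, 0 on full 5′ arrays, 88 after quantile normalization and 442 at 0.05. The 26 lower became 41 with all arrays, 74 with the block, 60 with the covariate, 0 on full 5′ arrays and 115 at 0.05. Between lines and tumors, 0.05 gave 821 higher and 403 lower genes.

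Leaving out 1 sample gave 241 to 806 higher and 207 to 716 lower probe sets, the lowest counts without a line. For single organs it gave 450 to 882 (kidney), 633 to 1465 (liver) and 150 to 555 (lymph node), and for genes passing against every organ 19 to 48 higher and 8 to 15 lower. Against the tumors, leaving out a line, an alternative chosen after seeing the data as was the threshold of 0.05 there, gave 109 to 118 higher and 34 to 55 lower genes. Of 170 named called genes, the block changed no call, 0 kept the call with 1 averaged profile per organ, 0 on the full 5′ arrays, 36 with the organ samples as 1 group and 130 with all 23 arrays, 59 kept it without line 1, 64 without line 2 and 117 to 139 without an organ sample, and 136 with the median over a gene's probe sets. That median turned the sign of FEN1 to -0.23 and of SRSF5 to 0.19, and under the other alternatives none of the 170 genes turned its sign.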
